A study of Mus musculus with 24 samples.

Results

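The genes described are 9 receptors of T cells that restrain or add to the signal of the antigen receptor: the co-inhibitory receptors Pdcd1 (encoding PD-1), Ctla4, Lag3, Havcr2 (TIM-3), Tigit, Btla and Cd160, and the costimulatory receptors Cd28 and Icos. They were chosen by name, with earlier results of these data known. Each is read by 1 probe set that carries a single gene symbol, and they are 9 of the 19938 genes measured. RNA came from T6E, a mouse T-cell acute lymphoblastic leukemia line, and was read on 24 expression arrays in 8 groups of 3. Cells carried 1 of 4 constructs: the empty vector MigR1, DNMAML (a dominant negative form of the Notch coactivator MAML), ICN1 (intracellular Notch 1), or R1984A (an intracellular Notch 1 that is defective in dimerization). Each construct was combined with DMSO, the solvent, or with 1 uM of the gamma-secretase inhibitor Compound E (GSI) for 6 hours, which gives the groups MigR1-DMSO, MigR1-GSI, DNMAML-DMSO, DNMAML-GSI, ICN1-DMSO, ICN1-GSI, R1984A-DMSO and R1984A-GSI. All groups share 1 leukemia line, and the labels do not say whether a group's 3 arrays hold separate cultures. The p-values therefore speak only of the scatter among the arrays, which may be technical.

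A T cell is activated when its antigen receptor and CD28 signal together. CD28 and CTLA-4 bind the same ligands, CD80 and CD86, and CTLA-4 competes with CD28 for them. PD-1, bound by PD-L1 or PD-L2, recruits the phosphatase SHP-2 and dampens both signals, and LAG-3, TIM-3, TIGIT and BTLA are further brakes that T cells commonly raise after activation or in exhaustion. Notch is cut by gamma-secretase, and its intracellular part joins the DNA-binding protein RBPJ and MAML to switch on genes. DNMAML blocks that step, GSI blocks the cut, and an intracellular Notch 1 construct does not need the cut.

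The promoter windows of Pdcd1 and Cd160 are shown because these were the inhibitory receptors with the widest range between groups. Each window runs from 250 bases before to 50 bases after the RefSeq start of transcription in GRCm38.p6, is 300 bases long and is read 5′ to 3′ on the gene's strand. Pdcd1 lies at chr1:94052504-94052803 on the minus strand. Cd160 has a pair of annotated starts, with window 1 at chr3:96829302-96829601 and window 2 at chr3:96814472-96814771, both on the minus strand. Capitals mark the RBPJ core motif TGGGAA, searched on both strands.
Pdcd1: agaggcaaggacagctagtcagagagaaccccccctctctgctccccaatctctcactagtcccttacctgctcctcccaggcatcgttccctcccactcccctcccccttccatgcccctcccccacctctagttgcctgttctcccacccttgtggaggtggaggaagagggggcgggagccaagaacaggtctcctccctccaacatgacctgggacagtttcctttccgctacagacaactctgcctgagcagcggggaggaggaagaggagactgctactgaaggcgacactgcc
Cd160 window 1: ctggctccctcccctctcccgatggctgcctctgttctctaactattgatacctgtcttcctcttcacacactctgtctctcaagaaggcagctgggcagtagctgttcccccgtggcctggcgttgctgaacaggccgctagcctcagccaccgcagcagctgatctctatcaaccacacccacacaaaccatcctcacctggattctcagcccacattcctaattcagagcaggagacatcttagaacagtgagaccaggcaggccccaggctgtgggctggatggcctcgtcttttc
Cd160 window 2: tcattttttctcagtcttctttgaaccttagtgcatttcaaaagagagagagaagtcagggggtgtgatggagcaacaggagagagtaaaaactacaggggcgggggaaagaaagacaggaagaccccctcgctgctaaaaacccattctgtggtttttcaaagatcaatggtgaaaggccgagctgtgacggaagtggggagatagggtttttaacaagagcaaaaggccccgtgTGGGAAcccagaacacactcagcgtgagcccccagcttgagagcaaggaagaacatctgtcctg
The RBPJ core was in window 2 of Cd160, with its first base at position -14 from the start, and was not in window 1 or in the Pdcd1 window. The Runx core TGTGGT, also searched on both strands, was at -76 in window 1 and -101 in window 2 of Cd160 and was not in the Pdcd1 window. Of all 32851 windows of this length, 25.6% held the RBPJ core and 16.8% held the Runx core. Windows were found for 6 of the 9 receptors. Of the others, Btla held both motifs (RBPJ core at 11, Runx core at -178), Tigit (-140) and Havcr2 (-46) held the Runx core, and Ctla4 held neither. Lag3, Icos and Cd28 were not matched.

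The label checks used Notch1 and Nrarp, a direct Notch target. Nrarp fell in DNMAML-DMSO against MigR1-DMSO by 1.24 on the log2 scale and in MigR1-GSI against MigR1-DMSO by 1.21, and it rose with ICN1 and R1984A against MigR1 in both treatments. Notch1 was at 6.22 in MigR1-DMSO and at 7.28 in ICN1-DMSO and 7.01 in R1984A-DMSO. Whether its probe set reads the construct was not tested. Of the T cell markers, 8 of 8 measured lay above the dim level, a log2 value of 3.88 that 95% of 1027 olfactory receptor genes fall under. No B cell marker (0 of 4) or myeloid marker (0 of 6) did. Of the natural killer markers Gzma did (1 of 6), of the mast cell or basophil markers Cpa3 (1 of 4), of the stroma markers Col1a1 (5.06) and Col1a2 (4.78, 2 of 4), and of the erythroid or megakaryocyte markers Itga2b (4.10, 1 of 3).

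All values are log2 intensities, and the level of one gene's probe set is not comparable with that of another. By mean over all 24 arrays, 5 of the 9 receptors lay above the dim level: Pdcd1, Cd160, Tigit, Icos and Cd28. The group means of Ctla4 (3.16 to 3.43), Lag3 (3.46 to 3.79), Havcr2 (2.42 to 2.69) and Btla (2.83 to 3.06) were all below it. The range of group means was 2.18 for Pdcd1, 1.48 for Cd28, 1.37 for Cd160, 0.75 for Icos and 0.41 for Tigit. In bulk RNA, fewer cells with a transcript and less transcript per cell cannot be told apart.

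**Figure D1:**
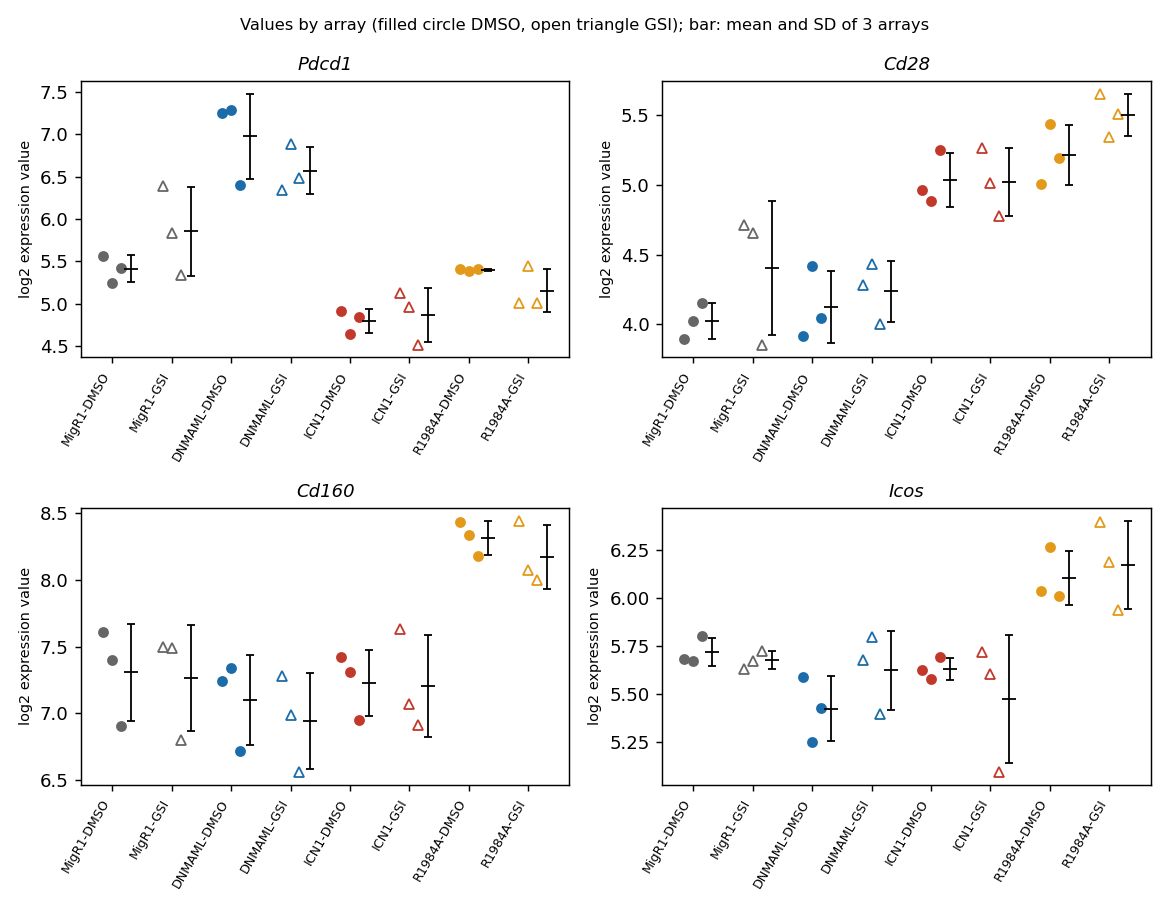
Log2 intensity (vertical axis) of Pdcd1, Cd28, Cd160 and Icos, by group (horizontal axis), with 1 point per array (filled for DMSO, open for GSI) and a bar for the mean and SD of 3 arrays. Pdcd1 is highest in the DNMAML groups (means 6.98 and 6.57), Cd28 is higher in the ICN1 and R1984A groups than in the MigR1 and DNMAML groups, and Cd160 and Icos are highest in the R1984A groups.

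Pdcd1 rose with DNMAML in DMSO and was lower with ICN1 than with the empty vector under GSI. In MigR1-DMSO its 3 arrays read 5.56, 5.25 and 5.42, a mean of 5.41 ± 0.16 (SD, n = 3). In DNMAML-DMSO they read 7.25, 7.29 and 6.40, a mean of 6.98 ± 0.50 (SD, n = 3). Every DNMAML-DMSO array was above every MigR1-DMSO array. The difference was 1.57 (SE 0.23, 95% confidence interval 1.09 to 2.05), or 2.97-fold, with adjusted p = 3.9e-04 by limma with Benjamini-Hochberg adjustment over all genes. Pdcd1 was the 1 receptor of 9 called in this comparison, where 1.94% of all genes were called (386 genes, or 934 with the replicate number as a block). It kept its call without any 1 of the 6 arrays compared, but not without all arrays numbered 2 (difference 1.33, adjusted p = 0.18).

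Under GSI the same constructs lay closer. MigR1-GSI read 6.39, 5.83 and 5.34 for Pdcd1, a mean of 5.86 ± 0.53 (SD, n = 3), and DNMAML-GSI read 6.35, 6.88 and 6.48, a mean of 6.57 ± 0.28 (SD, n = 3). The first MigR1-GSI array lay within the DNMAML-GSI range, so the groups overlapped. The difference of 0.71 (95% confidence interval 0.23 to 1.20) was not called (limma adjusted p = 0.41), as none of the 9 receptors was, against 0.191% of all genes. At an unadjusted p under 0.05 in limma there was 1 receptor, Pdcd1, and 1249 of all 19938 genes. The 6 DNMAML arrays ranged from 6.35 to 7.29 and the other 18 from 4.51 to 6.39, with the first MigR1-GSI array inside the DNMAML range.

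In ICN1-GSI, Pdcd1 read 5.13, 4.96 and 4.51, a mean of 4.87 ± 0.32 (SD, n = 3), and every array was below every MigR1-GSI array. It fell by 0.99 on the log2 scale against MigR1-GSI (SE 0.23, 95% confidence interval -1.47 to -0.51, limma adjusted p = 0.0188), the 1 receptor called where 2.35% of genes were. The call was lost without MigR1-GSI replicate 1 (adjusted p = 0.15), MigR1-GSI replicate 2 (0.056) or ICN1-GSI replicate 3 (0.13), and in a fit of these groups alone (0.16), with differences from -0.72 to -1.24 when 1 array was left out. In DMSO, ICN1 read 4.91, 4.64 and 4.84, a mean of 4.80 ± 0.14 (SD, n = 3), again below every MigR1-DMSO array. That difference of -0.61 was not called (limma adjusted p = 0.52).

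R1984A did not separate from the vector in DMSO. Its Pdcd1 arrays read 5.41, 5.39 and 5.41, a mean of 5.40 ± 0.01 (SD, n = 3), and the difference from MigR1-DMSO was -0.01. In R1984A-GSI they read 5.01, 5.44 and 5.004, a mean of 5.15 ± 0.25 (SD, n = 3), with a difference from MigR1-GSI of -0.70 that was not called (limma adjusted p = 0.24) but was without MigR1-GSI replicate 3 (-0.96, adjusted p = 0.040). ICN1 against R1984A gave -0.60 in DMSO (limma adjusted p = 0.42, or 0.043 in a fit of these groups alone, every ICN1 array lower) and -0.28 under GSI (0.85). In order of group means, Pdcd1 ran from DNMAML-DMSO and DNMAML-GSI down through MigR1-GSI, MigR1-DMSO, R1984A-DMSO, R1984A-GSI and ICN1-GSI to ICN1-DMSO, and each neighbouring pair of groups in that order overlapped.

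Among markers of other cells, the mast cell gene Cpa3 was highest with DNMAML and lowest with ICN1, as Pdcd1 was. In DMSO it was at 9.27 with DNMAML, 6.99 with MigR1, 6.17 with R1984A and 5.34 with ICN1, and under GSI at 9.43, 7.56, 6.09 and 5.23 in that order. Cpa3 was also called in DNMAML-GSI (higher) and R1984A-GSI (lower) against MigR1-GSI and in ICN1-DMSO (lower) against MigR1-DMSO. Pdcd1 differed in the same directions there (0.71, -0.70 and -0.61), but was not called. The other 3 mast cell markers, Fcer1a, Ms4a2 and Mcpt8, were below the dim level in every group. In DNMAML-DMSO against MigR1-DMSO, Fcer1a was at 2.89 and 2.53, Ms4a2 at 2.58 and 2.67, and Mcpt8 at 2.79 and 3.23. The mean of the 4 mast cell markers, 4.38 in DNMAML-DMSO and 3.85 in MigR1-DMSO, was thus higher through Cpa3. Over the 8 groups that mean ranged from 3.33 to 4.38. The mean of the 8 T cell markers was 8.26 in DNMAML-DMSO and 7.94 in MigR1-DMSO. The part of these markers in the Pdcd1 difference was not tested.

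Cd160, an inhibitory receptor that binds HVEM (Tnfrsf14), as BTLA does, was highest with R1984A. Its 6 R1984A arrays ranged from 7.996 to 8.44 and the other 18 from 6.56 to 7.63, so R1984A did not overlap the rest. This split was set for this gene with earlier results known. How many of all genes separate in this way was not counted. R1984A-DMSO read 8.43, 8.33 and 8.18, a mean of 8.31 ± 0.13 (SD, n = 3), and MigR1-DMSO read 7.61, 7.40 and 6.91, a mean of 7.31 ± 0.36 (SD, n = 3). Cd160 was thus higher by 1.01 (SE 0.23, 95% confidence interval 0.53 to 1.48), or 2.01-fold, with limma adjusted p = 0.031. In this comparison 2 of 9 receptors were called, Cd160 and Cd28, against 0.978% of all genes. The Cd160 call was lost without any 1 of MigR1-DMSO replicates 2 (adjusted p = 0.078) and 3 (0.27) or R1984A-DMSO replicates 1 (0.14), 2 (0.12) and 3 (0.063), with differences from 0.81 to 1.16. These fits had no replicate block. In every group the array numbered 3 read lowest for Cd160, a shared shift that fits without the block count as scatter. With the replicate number as a block and all arrays kept, limma gave adjusted p = 1.4e-05.

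With ICN1, Cd160 overlapped the vector groups. ICN1-DMSO read 7.42, 7.31 and 6.95, a mean of 7.23 ± 0.24 (SD, n = 3), which was 0.08 below MigR1-DMSO and lower than R1984A-DMSO by a called difference of -1.08 (SE 0.23, 95% confidence interval -1.56 to -0.61, limma adjusted p = 0.0162). Cd160 was the 1 receptor called between ICN1-DMSO and R1984A-DMSO, where 0.963% of genes were. Under GSI, ICN1 read 7.63, 7.07 and 6.91 and R1984A read 8.44, 8.07 and 7.996. The difference was -0.96 (SE 0.23, 95% confidence interval -1.44 to -0.48, limma adjusted p = 0.0396). Leaving out 1 array moved the difference to between -0.95 and -1.18 in DMSO and between -0.82 and -1.18 under GSI. With the replicate number as a block and all arrays kept, the DMSO difference had limma adjusted p = 4.9e-06. The GSI difference had limma adjusted p = 2.5e-05 with that block, but there the numbers did not pair the arrays. In fits without the block, the DMSO call was lost without ICN1-DMSO replicate 3 (adjusted p = 0.14) or R1984A-DMSO replicate 1 (0.090) or 2 (0.077). Under GSI it was lost without ICN1-GSI replicate 2 (0.15) or 3 (0.22), without R1984A-GSI replicate 1 (0.19), 2 (0.095) or 3 (0.075), and in a fit of these groups alone (0.11).

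R1984A-GSI against MigR1-GSI (7.50, 7.49 and 6.80) gave 0.90 for Cd160 (95% confidence interval 0.43 to 1.38), just over the threshold (limma adjusted p = 0.0515), with every R1984A-GSI array higher. It was called with dim genes left out (adjusted p = 0.039), with a second quantile normalization (0.0188), with a trended robust prior (0.045) and with array weights (0.68, adjusted p = 0.029). With DNMAML, Cd160 read 7.24, 7.34 and 6.72 in DMSO and 7.28, 6.99 and 6.56 under GSI, and overlapped the vector groups. The mean of the natural killer markers, a lineage that also carries Cd160, ranged from 3.86 to 4.01 over the 8 groups, and Eomes, Klrb1c, Klrd1, Klrk1 and Ncr1 were below the dim level. The remaining marker, Gzma, lay above it, with group means from 9.58 in ICN1-DMSO to 10.13 in DNMAML-DMSO. It was called higher in DNMAML-DMSO against MigR1-DMSO, where 1.94% of genes were called.

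Tigit, an inhibitory receptor for Pvr that competes with CD226, was called in no comparison. Its group means ran from 5.01 ± 0.16 (SD, n = 3) in MigR1-DMSO to 5.42 ± 0.14 (SD, n = 3) in ICN1-GSI, and every neighbouring pair of groups in that order overlapped. Against MigR1-GSI, ICN1-GSI was higher by 0.30 (95% confidence interval 0.05 to 0.55, limma adjusted p = 0.29). Every ICN1-GSI array was above every MigR1-GSI array and every ICN1-DMSO array for Tigit, without a call. Ctla4, Lag3, Havcr2 and Btla were called in none of the 16 tests. The lowest adjusted p among them was 0.58, for Lag3, which binds MHC class II, in ICN1-GSI against MigR1-GSI. No difference was called at these dim intensities, which does not show that the genes are silent. Whether the dim signal hid a change was not tested.

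**Figure D2:**
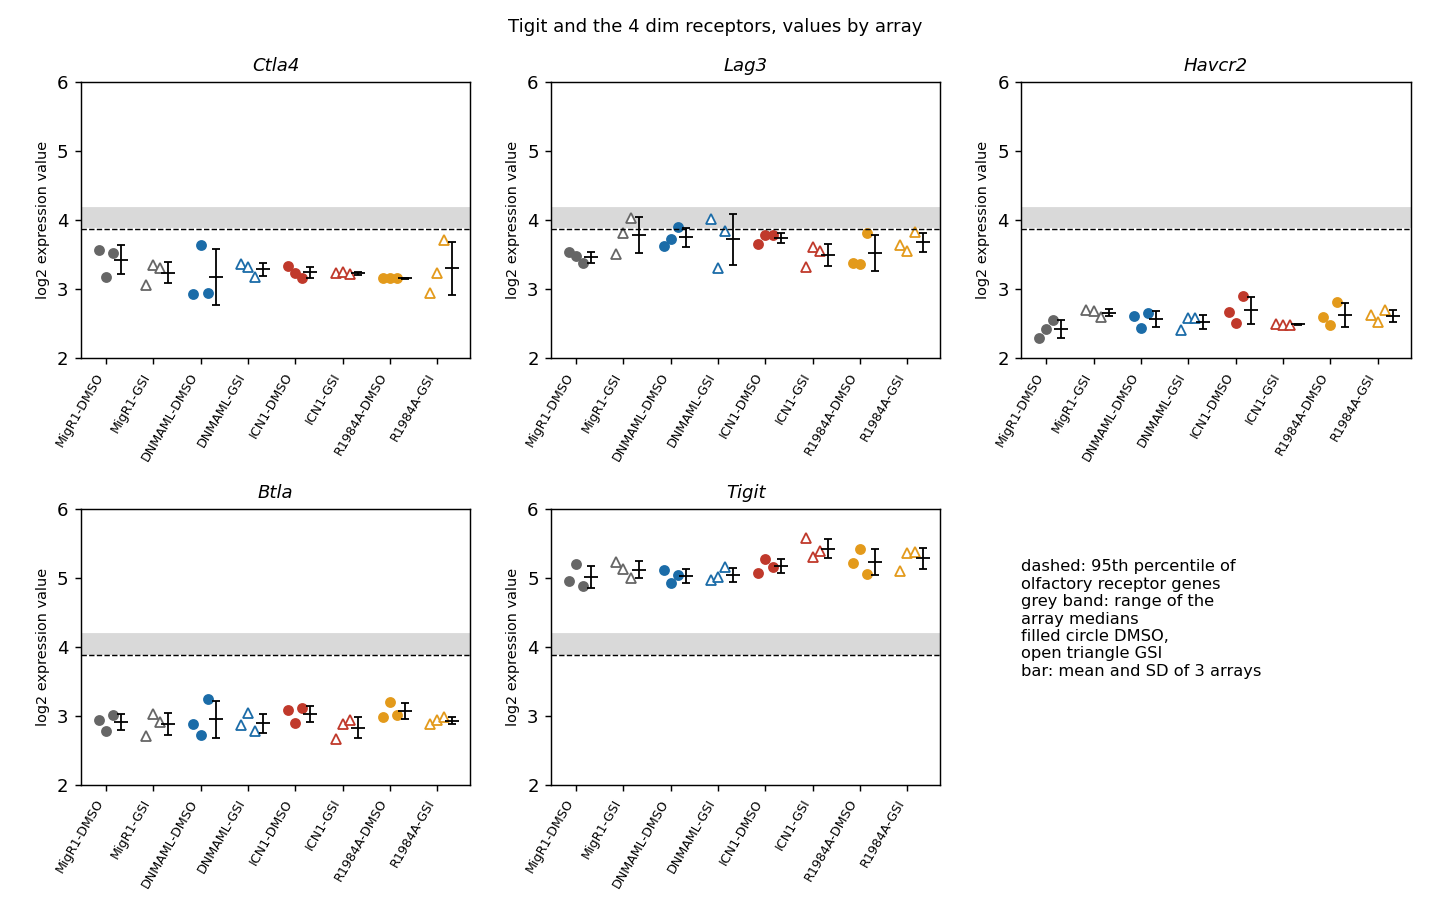
Log2 intensity (vertical axis) of Ctla4, Lag3, Havcr2, Btla and Tigit by group (horizontal axis), with 1 point per array (filled for DMSO, open for GSI), a bar for the mean and SD of 3 arrays, the dim level of 3.88 as a dashed line and the range of array medians as a grey band. The group means of the first 4 receptors lie below the line, from 2.42 for Havcr2 to 3.79 for Lag3, and those of Tigit lie above it, from 5.01 to 5.42.

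Cd28, the main costimulatory receptor of T cells, was higher with either form of intracellular Notch 1. The 12 ICN1 and R1984A arrays ranged from 4.78 to 5.65 and the 12 MigR1 and DNMAML arrays from 3.85 to 4.71, without overlap. As for Cd160, the split was set for this gene with earlier results known, and the share of all genes was not counted. MigR1-DMSO read 3.90, 4.03 and 4.16, a mean of 4.03 ± 0.13 (SD, n = 3), which lies between the lowest and highest array medians, 3.9 and 4.18. ICN1-DMSO read 4.96, 4.89 and 5.26, a mean of 5.04 ± 0.19 (SD, n = 3). The difference was 1.01 (SE 0.19, 95% confidence interval 0.61 to 1.41, limma adjusted p = 0.0074), and Cd28 was the 1 receptor called where 0.727% of genes were. That call was lost without MigR1-DMSO replicate 1 (adjusted p = 0.057) or ICN1-DMSO replicate 3 (0.077), with differences from 0.90 to 1.08 when 1 array was left out. These fits had no replicate block. With the replicate number as a block and all arrays kept, limma gave adjusted p = 0.0026.

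R1984A-DMSO read 5.01, 5.44 and 5.20 for Cd28, a mean of 5.22 ± 0.22 (SD, n = 3). It exceeded MigR1-DMSO by 1.19 (SE 0.19, 95% confidence interval 0.79 to 1.59), or 2.28-fold, with limma adjusted p = 0.0010, and the call held without each of the 6 arrays in turn, but not without all arrays numbered 2 (adjusted p = 0.21). Both comparisons share the MigR1-DMSO arrays. Directly, ICN1-DMSO and R1984A-DMSO differed by -0.18 (95% confidence interval -0.58 to 0.22, limma adjusted p = 0.999), an interval that does not show them to be equal.

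Under GSI, Cd28 read 4.71, 4.65 and 3.85 in MigR1, a mean of 4.41 ± 0.48 (SD, n = 3), and 5.65, 5.35 and 5.51 in R1984A, a mean of 5.50 ± 0.15 (SD, n = 3). The difference was 1.10 (SE 0.19, 95% confidence interval 0.699 to 1.495, limma adjusted p = 0.0016). It was called without each of the 6 arrays in turn, but not in a fit of these groups alone (0.11). Cd28 was the 1 receptor of 9 called there, against 1.36% of genes. ICN1-GSI read 5.26, 5.02 and 4.78, above every MigR1-GSI array, and its difference of 0.61 was not called (limma adjusted p = 0.116). DNMAML overlapped the vector, at 3.92, 4.42 and 4.05 in DMSO and 4.28, 4.43 and 4.003 under GSI.

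Icos, a costimulatory receptor of activated T cells, was highest in the R1984A groups. Its 6 R1984A arrays ranged from 5.94 to 6.40 and the other 18 from 5.09 to 5.80, without overlap. Again the split was set for this gene with earlier results known, and the share of all genes was not counted. R1984A-GSI read 6.40, 6.19 and 5.94, a mean of 6.17 ± 0.23 (SD, n = 3), and ICN1-GSI read 5.72, 5.60 and 5.09, a mean of 5.47 ± 0.33 (SD, n = 3). ICN1-GSI was lower than R1984A-GSI by a difference of -0.70 (SE 0.15, 95% confidence interval -1.004 to -0.398, limma adjusted p = 0.0137). With Cd160, Icos made 2 of 9 receptors called in this comparison, against 1.1% of genes. The Icos call was lost without ICN1-GSI replicate 3 (adjusted p = 0.12), R1984A-GSI replicate 1 (0.10) or 2 (0.064), and in a fit of these groups alone (0.27), with differences from -0.51 to -0.83 when 1 array was left out.

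In DMSO, Icos read 6.04, 6.26 and 6.01 in R1984A, 5.68, 5.67 and 5.80 in MigR1, and 5.62, 5.58 and 5.69 in ICN1. The differences of 0.39 for R1984A over MigR1 (limma adjusted p = 0.47) and -0.47 for ICN1 against R1984A (0.185, or 0.023 with array weights) were not called, although the arrays did not overlap. R1984A-GSI over MigR1-GSI, at 0.50, was not called either (0.13, or 0.015 with array weights). The mean of the regulatory T cell markers Foxp3, Ikzf2 and Il2ra, cells that also carry Icos and Cd28, was 6.94 in R1984A-DMSO and 7.06 in R1984A-GSI and from 6.36 to 6.71 in the other groups. Of these, Foxp3 was close to the dim level of 3.88. It was at 3.86 in R1984A-DMSO, the lowest of the 8 groups, and at 4.14 in R1984A-GSI. In MigR1-DMSO it was at 4.11 and in MigR1-GSI at 4.23. Il2ra was at 8.06 and 8.13 in the R1984A groups and at 8.02 and 7.90 in the ICN1 groups. It was called higher with R1984A against MigR1 in DMSO and under GSI (0.978% and 1.36% of genes called), and with ICN1 as well (0.727% and 2.35%). Ikzf2 was at 8.90 and 8.91 in the R1984A groups, at 9.10 and 9.26 in the DNMAML groups and at 7.87 in ICN1-GSI. It was called lower with ICN1 than with R1984A in DMSO and under GSI (0.963% and 1.1% of genes called). The part of this list in the results was not tested.

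**Figure D3:**
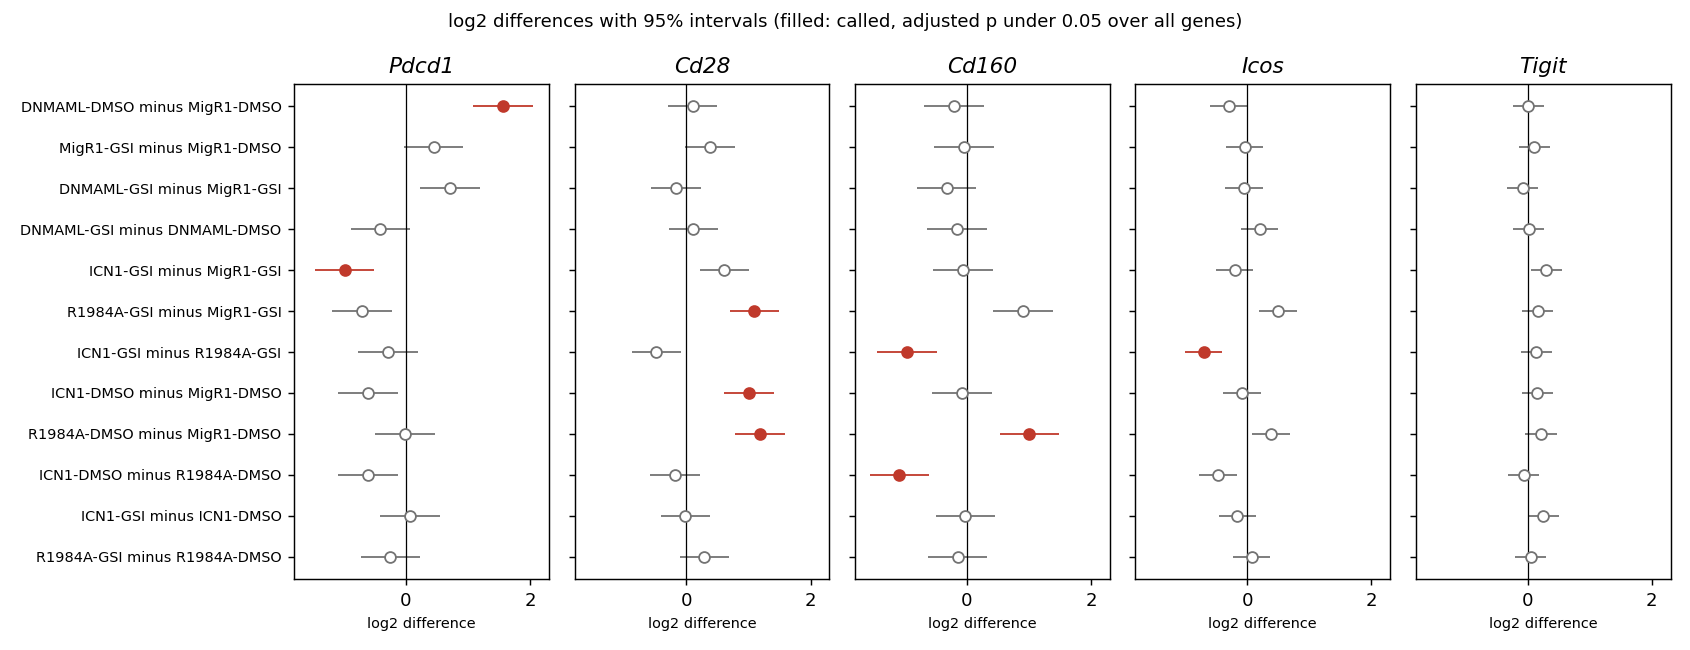
Log2 differences (horizontal axis) of Pdcd1, Cd28, Cd160, Icos and Tigit in the 12 comparisons of groups (vertical axis), with 95% confidence intervals from limma and filled points where called. The called differences include Pdcd1 in DNMAML-DMSO against MigR1-DMSO (1.57), Cd28 in R1984A-DMSO against MigR1-DMSO (1.19) and Cd160 in ICN1-DMSO against R1984A-DMSO (-1.08).

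GSI alone left the receptors without a call. In limma, none of the 9 was called in MigR1-GSI against MigR1-DMSO (0.166% of all genes called). There 972 of the 19938 genes and 1 receptor, Havcr2, had an unadjusted p under 0.05. For DNMAML-GSI against DNMAML-DMSO 0.00502% of genes were called, with 507 genes and 0 receptors at an unadjusted p under 0.05. For ICN1-GSI against ICN1-DMSO 0% of genes were called in limma, with 472 genes and 1 receptor, Tigit, at an unadjusted p under 0.05. For R1984A-GSI against R1984A-DMSO 0% were called as well, with 635 genes and 0 receptors at an unadjusted p under 0.05. Pdcd1 differed between MigR1-GSI and MigR1-DMSO by 0.45 (95% confidence interval -0.04 to 0.93) and between DNMAML-GSI and DNMAML-DMSO by -0.41 (-0.89 to 0.07). A p that misses the threshold does not show that GSI left Pdcd1 as it was.

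The GSI response of one construct was also tested against that of another, and limma called none of the 9 receptors. The Pdcd1 response in DNMAML was lower than in MigR1 by a difference of -0.85 (SE 0.33, 95% confidence interval -1.54 to -0.17) that had an unadjusted p of 0.016 and a limma adjusted p of 1, where 0.00502% of genes were called. In this test 621 of the 19938 genes had an unadjusted p under 0.05, and Pdcd1 was the 1 receptor among them. For R1984A against MigR1 the Pdcd1 response differed by -0.69 (limma adjusted p = 0.9998), and 0.0251% of genes were called. Pdcd1 was the 1 receptor at an unadjusted p under 0.05, which 701 genes had. For ICN1 against MigR1, 0.015% of genes were called. There 636 of the 19938 genes and 2 receptors, Havcr2 and Lag3, both dim, had an unadjusted p under 0.05. For ICN1 against R1984A 0% of genes were called in limma, with 460 genes and 0 receptors at an unadjusted p under 0.05.

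Of 12 ligands measured, limma called 1 in any comparison of groups: Pvr, the ligand of TIGIT, fell by 0.77 on the log2 scale in ICN1-GSI against MigR1-GSI (SE 0.17, adjusted p = 0.0139), where 2.35% of all genes were called. The median of the 12 was -0.04 there, and that of all genes -0.01. The group means of Cd274, encoding PD-L1, ran from 4.58 to 4.91, those of Pdcd1lg2, encoding PD-L2, from 3.84 to 4.08, and those of Cd80 from 4.57 to 4.99. Cd86, Icosl and Fgl1 were below the dim level. Lgals9, a ligand of TIM-3, ran from 8.31 in ICN1-GSI to 9.76 in DNMAML-GSI. It was called in none of the 12 comparisons of groups, which did not set ICN1 against DNMAML.

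Among 13 other inhibitory receptors, 2 were called with DNMAML in DMSO, where 1.94% of all genes were: Cd96, which shares the ligand Pvr with TIGIT (1.19, SE 0.15, adjusted p = 5.5e-05), and Pecam1, an adhesion molecule with inhibitory motifs (1.04, SE 0.18, adjusted p = 0.0019). The list median was -0.01, as 11 of the 13 were not called. Cd96 also rose in DNMAML-GSI against MigR1-GSI (0.78, adjusted p = 0.0187), the 1 of 13 called where 0.191% of genes were. Both genes fell with ICN1 against MigR1, in DMSO (Pecam1 -0.76, Cd96 -0.68, 0.727% of genes called) and under GSI (Pecam1 -1.16, Cd96 -1.05, 2.35% of genes called). Neither was called for R1984A against MigR1. Like Pdcd1 they were highest in a DNMAML group and lowest in an ICN1 group. Of 12 other costimulatory receptors, Cd27 fell in ICN1-GSI against MigR1-GSI (-0.64, where 2.35% of genes were called) and Tnfrsf1b fell in ICN1-DMSO against MigR1-DMSO (-0.63, where 0.727% were), and no other was called in these comparisons.

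Of 16 measured genes that signal below these receptors, 3 rose in DNMAML-DMSO against MigR1-DMSO: the adaptors Sla (1.92), Grap2 (0.68) and Lcp2 (0.45), with a list median of 0.32 against 0.00 for all genes and 1.94% of genes called. These 3 fell in ICN1-GSI against MigR1-GSI (Grap2 -1.57, Sla -1.31, Lcp2 -0.56) and in ICN1-DMSO against MigR1-DMSO, where 2.35% and 0.727% of genes were called. With R1984A under GSI, where 1.36% of genes were called, Cblb, a ubiquitin ligase that CD28 signals counter, rose by 0.60 and the phosphatase Inpp5d by 0.53, and Grap2 fell by 0.88. Cblb also rose in R1984A-DMSO (0.64, with 0.978% of genes called). In DNMAML-GSI against MigR1-GSI, Sla was the 1 of 16 called, and was higher (0.191% of genes called). Grap2, Inpp5d and Lcp2 were lower in ICN1-DMSO than in R1984A-DMSO (0.963% of genes called). Under GSI, Inpp5d and Lcp2 were lower with ICN1 than with R1984A (1.1% of genes called). The phosphatases of PD-1, Ptpn11 and Ptpn6, were called in none of the 12 comparisons of groups.

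Transcription factors linked to T-cell exhaustion went in both directions. Of 18 measured, 2 rose in DNMAML-DMSO against MigR1-DMSO, Maf (1.08) and Tox2 (0.78), where 1.94% of all genes were called. In ICN1-GSI against MigR1-GSI, 4 fell, led by Ikzf2 (-1.10), Maf (-1.08) and Tox2 (-1.04), and 2 rose, among them Nr4a1 (0.66), where 2.35% of genes were called. For R1984A against MigR1, 4 of the 18 were called under GSI, 3 higher and 1 lower (Maf), and 3 in DMSO, all higher. Nr4a1, a gene induced by the antigen receptor, was higher by 1.45 under GSI and 0.84 in DMSO. Id2 was higher by 0.99 and 0.82, and Nfatc2 was also called higher in both. In these comparisons 1.36% and 0.978% of genes were called. Between ICN1-DMSO and R1984A-DMSO 5 of the 18 were lower with ICN1, with a list median of -0.37 against 0.00 for all genes and 0.963% of genes called. Under GSI 4 were lower, with a median of -0.35 against 0.00 and 1.1% of genes called.

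Of 18 early genes of the antigen receptor, 5 were called in ICN1-GSI against MigR1-GSI (2.35% of all genes), 2 higher and 3 lower, led by Myc (1.75), Egr1 (0.80), Cd69 (-0.72) and Rel (-0.65). ICN1 against R1984A gave 2 in each treatment, Myc higher (0.92 in DMSO, 1.14 under GSI) and Rel lower (-0.62 and -0.87), where 0.963% and 1.1% of genes were called. Myc, a Notch target, was the 1 called in DNMAML-DMSO (-1.40, 1.94% of genes) and in MigR1-GSI (-1.50, 0.166%), each against MigR1-DMSO. With R1984A, 1 was called in DMSO (Rel, 0.65, 0.978% of genes) and 1 under GSI (Tnf, 0.76, 1.36%). None was called in limma in the other comparisons of groups. The list medians ran from -0.09 to 0.05.

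The genes most like Pdcd1 over the 24 arrays, among 9920 genes above the highest array median, were Sla (r = 0.95), Arntl (0.94), Pstpip1 (0.94), Ctsd (0.94) and Niban1 (0.93). Nearest to Cd160 were Ndufa10 (0.94), Tmem273 (0.93), Ripor2 (0.92), Patz1 (0.92) and Fry (0.91). Nearest to Cd28 were Tm9sf2 (0.93), Rras2 (0.92), Irf9 (0.90), Tmem131 (0.89) and Chit1 (0.89). These Pearson correlations are a description: the arrays share groups and normalization, and no p is given. Between the receptors, Cd160 and Icos had r = 0.78 over 24 arrays, 0.93 over the 8 group means and 0.32 within groups. Pdcd1 and Cd28 had -0.54 over arrays and 0.51 within groups, so the sign came from the groups.

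**Figure D4:**
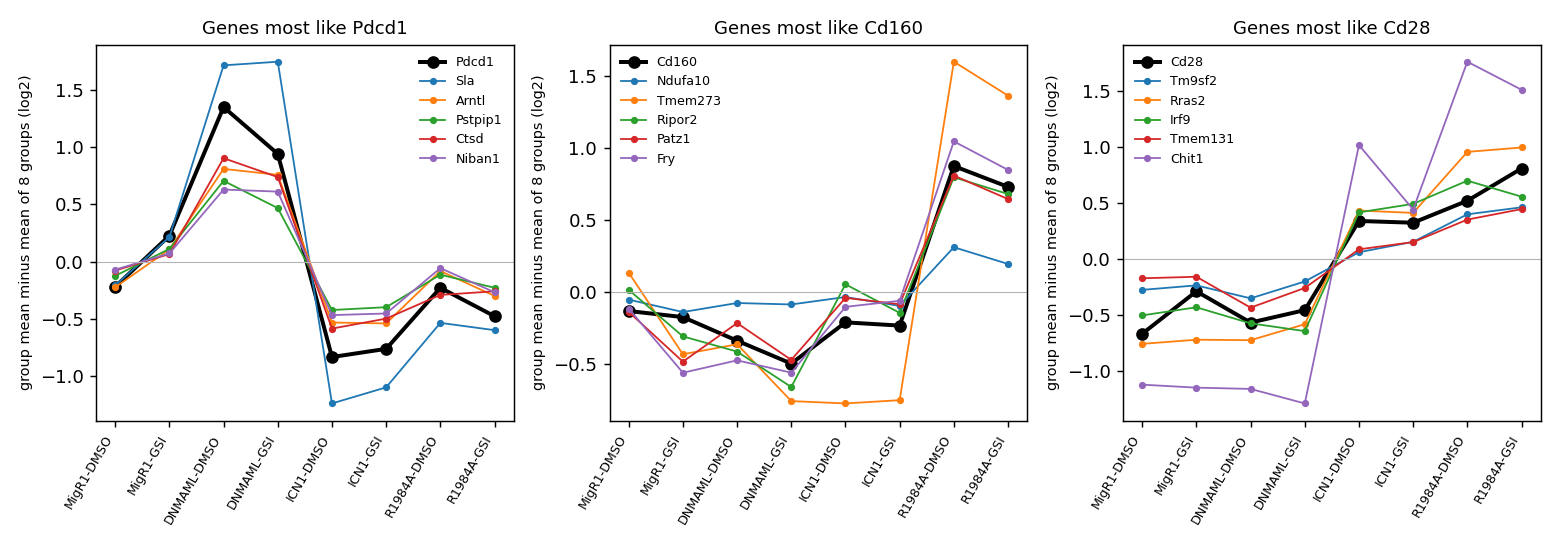
Group mean minus the mean of the 8 groups (vertical axis, log2) for Pdcd1, Cd160 and Cd28 (black) and the 5 genes most like each over 24 arrays (coloured), by group (horizontal axis). The curves of Sla (r = 0.95 with Pdcd1), Ndufa10 (0.94 with Cd160) and Tm9sf2 (0.93 with Cd28) follow their receptor across the 8 groups.

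Cd28, Ctla4 and Icos lie next to each other on chromosome 1, and the middle gene, Ctla4, was dim (mean 3.26 over 24 arrays, range of group means 0.27) while those on either side varied. The genes flanking Pdcd1, Neu4 and Fam174a, had group means within 0.26 and 0.30 of each other, and those flanking Cd160, Rnf115 and Pdzk1, within 0.24 and 0.48. Pdzk1 had r = 0.57 with Cd160 over the 24 arrays, and Rnf115 0.33. None of these 4 was called in any comparison. Lag3 lies beside Cd4, the coreceptor gene, which was called in 3 comparisons (DNMAML-DMSO against MigR1-DMSO, ICN1-GSI and R1984A-GSI against MigR1-GSI), while Lag3 was called in none.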

How the data were processed

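Total RNA of T6E cells was hybridised to 24 Affymetrix mouse gene arrays. The log2 intensities were used as the authors deposited them. The submitters' processing notes name oligo and limma, and the normalization steps and versions are not given in the sources used here. Depth does not apply to arrays: the number of arrays, 3 per group, limits the precision. The table held 35556 probe sets, of which 21789 carried 1 gene symbol, 1621 several and 12146 none in the platform annotation. Probe sets with several or no symbol were left out, and the one with the highest mean was kept for each of 19938 genes.

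Groups were compared with limma 3.58.1 in R 4.3.3 (lmFit and eBayes, 1 mean per group over all 24 arrays, two-sided, 16 residual and 6.56 prior degrees of freedom), and called at an adjusted p under 0.05 after Benjamini-Hochberg adjustment over all genes. There were 12 comparisons of groups and 4 tests of the GSI response. The script was tested on simulated data. The 9 receptors were named throughout, with up to 4 called genes per further list, Notch1 and Nrarp, and the 5 genes most correlated with each receptor whose group means span at least 1. The members and all gene lists were chosen with earlier results of these data known, so no list is independent support.

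Replicate numbers are shared by all groups in the labels. Numbers were taken to pair arrays where every same-numbered pair correlated above 0.1 in its deviations from the group means. This held in 7 of 12 comparisons of groups and in 1 of 4 response tests, and the blocked fit changed no receptor call there. Alternatives were the replicate block, a fit of the compared groups alone, a second quantile normalization, array weights, an intensity trend with a robust prior, leaving out dim genes, the mean of a gene's probe sets, and leaving out arrays singly or by replicate number. Promoter sequences came from RefSeq (GRCm38.p6).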

Additional observations from a re-analysis of the deposited data

How the results depend on the processing

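The 9 called receptor differences kept their direction in all 144 alternative values computed for them and stayed called in 105, and of the 39 lost calls 4 came with no array left out. Many of these directions were fixed in advance. The replicate block, the fit of the compared groups alone, the trended robust prior, leaving out dim genes and the mean of probe sets cannot move these differences. In those settings only the p-value could change. The number of receptors called fell to 0 in a fit of the compared groups alone for ICN1-GSI against MigR1-GSI, R1984A-GSI against MigR1-GSI and ICN1-GSI against R1984A-GSI, and rose to 2 for ICN1-DMSO against R1984A-DMSO. For R1984A-GSI against MigR1-GSI it rose from 1 to 3 with the replicate block, where the numbers did not pair the arrays (Cd160 and Icos were added), to 3 with array weights, and to 2 with a second quantile normalization, with an intensity trend and robust prior, and with dim genes left out. With array weights ICN1-DMSO against R1984A-DMSO gave 2. Leaving out arrays gave 0 to 1 for DNMAML-DMSO against MigR1-DMSO, ICN1-GSI against MigR1-GSI, ICN1-DMSO against MigR1-DMSO and ICN1-DMSO against R1984A-DMSO, 0 to 2 for ICN1-GSI against R1984A-GSI and R1984A-DMSO against MigR1-DMSO, and 1 to 3 for R1984A-GSI against MigR1-GSI. Why the counts moved was not tested, beyond the fewer arrays in these fits. Without all arrays numbered 2, 8 of the 9 called differences lost their call, all but Cd28 in R1984A-GSI against MigR1-GSI. Over all genes, the replicate block raised the calls from 386 to 934 for DNMAML-DMSO, from 33 to 82 for MigR1-GSI, from 145 to 297 for ICN1-DMSO and from 195 to 366 for R1984A-DMSO, each against MigR1-DMSO, from 38 to 163 for DNMAML-GSI, from 469 to 960 for ICN1-GSI and from 272 to 496 for R1984A-GSI, each against MigR1-GSI, and for ICN1 against R1984A from 192 to 456 in DMSO and 220 to 577 under GSI. Array weights gave 834, 51, 316, 338, 90, 589, 690, 384 and 739 in that order, and a fit of the compared groups alone 262, 4, 110, 129, 5, 167, 96, 139 and 51. Without all arrays numbered 2 the same counts were 11, 2, 25, 31, 0, 151, 78, 20 and 27. A second quantile normalization moved the called genes that were higher from 55.3% to 42.1% for DNMAML-GSI against MigR1-GSI, from 76.1% to 64.6% for R1984A-GSI against MigR1-GSI and from 29.1% to 42.7% for ICN1-GSI against R1984A-GSI. Dim signal limits what can be read for Ctla4, Lag3, Havcr2 and Btla.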

Other observations

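Pard3b, a polarity gene next to Icos on chromosome 1, had r = 0.79 with Icos over the 24 arrays and a range of group means of 0.75, without a call in any comparison.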
